A study of Mus musculus with 56 samples.

Results

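A group of 10 genes of bone morphogenetic protein (BMP) and activin signalling was examined for H2A.Z in mouse embryonic stem cells, with and without doxycycline. They are the ligand genes Bmp6, Bmp7, Bmp8a, Bmp8b and Inhbb, the Smad genes Smad3 and Smad6, the Smad corepressor gene Skil, and the target genes Id1 and Id4. The 10 genes were chosen with the authors' lists of changed H2A.Z peaks known. Peaks were taken by the gene name given to each, or by position at the gene. In those lists 25 of the 9077 lower peaks, and 0 of the 318 higher peaks, were assigned to 9 of the 10 genes. Id4 had no row under its own name, but a lower peak lay in its exon 1. All 10 genes thus held a lower peak close to the transcription start site (TSS), and the genes differed in what surrounded it.

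BMPs and activins are secreted ligands of the TGF-beta superfamily that bind pairs of serine/threonine kinase receptors. BMP receptors phosphorylate one group of receptor-regulated Smads and activin receptors another, to which Smad3 belongs, and these enter the nucleus and act on target genes such as the Id genes. Smad6 and Skil attenuate the pathway. In mouse embryonic stem cells BMP signalling through Id genes is known to help maintain self-renewal, and activin and Nodal signalling to guide mesoderm and endoderm formation. H2A.Z is a histone variant that marks promoters and enhancers, and RNase H1 is the enzyme that cuts the RNA of R-loops, in which RNA is paired with one DNA strand.

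The cells were of the line RHKI(E14Tg2a), which carries an HA-Rnaseh1 knock-in, and both groups carried it. H2A.Z was profiled by CUT&Tag, in which an antibody directs a transposase to tag the DNA around its target, in 4 control libraries and in 4 libraries of cells given doxycycline at 500 ng/ml for 48 hours. All were grown in 2i/LIF medium, which holds LIF, 2% FBS, 3 µM CHIR-99021 (a GSK3 inhibitor) and 1 µM PD0325901 (a MEK inhibitor). A line without the knock-in was not analysed here, so an effect of doxycycline itself and one of RNase H1 cannot be told apart, and neither the induction of RNase H1 nor gene expression was analysed here. Whether the line is a single clone is not stated in the labels. The deposited data were 61420 H2A.Z peaks on GRCm38 and the lists of lower and higher peaks, read from their names as doxycycline against control. They give positions and annotation without a fold change, a p-value or a value per library. The depth, and how far replicates differ, are therefore unknown, the IgG libraries of the series were not analysed here, "lower" means listed by the authors as lower, "unchanged" means in neither list, and no test was made. Over the whole set 14.8% of peaks were lower and 0.518% were higher.

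Sequence before the TSS was taken from RefSeq promoters of GRCm38.p6, which matched 7 of the 10 genes; Bmp7, Skil and Id1 had no entry. Those of Bmp6, Bmp8a, Bmp8b and Id4 are shown because they hold the letters of a motif known to bind Smads. Each line gives the 250 bases before the TSS, 5′ to 3′ on the coding strand, and capitals mark CAGAC or its reverse complement GTCTG, or GGCGCC. They lie at chr13:38345466-38345715 (plus strand), chr4:123343253-123343502 (minus strand), chr4:123104911-123105160 (plus strand) and chr13:48260866-48261115 (plus strand). In the first 3 all 250 bases lie inside the lower peak, and in Id4 0 do, since its peak begins downstream.
Bmp6: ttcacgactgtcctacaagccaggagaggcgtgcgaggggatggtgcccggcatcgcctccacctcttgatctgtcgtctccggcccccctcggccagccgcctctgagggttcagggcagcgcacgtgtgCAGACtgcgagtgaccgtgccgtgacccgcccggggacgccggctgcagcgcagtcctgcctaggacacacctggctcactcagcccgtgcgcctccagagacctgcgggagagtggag
Bmp8a: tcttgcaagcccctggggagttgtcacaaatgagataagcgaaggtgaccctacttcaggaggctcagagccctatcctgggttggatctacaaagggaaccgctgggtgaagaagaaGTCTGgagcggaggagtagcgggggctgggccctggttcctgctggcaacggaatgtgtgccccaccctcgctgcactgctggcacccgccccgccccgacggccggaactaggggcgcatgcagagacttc
Bmp8b: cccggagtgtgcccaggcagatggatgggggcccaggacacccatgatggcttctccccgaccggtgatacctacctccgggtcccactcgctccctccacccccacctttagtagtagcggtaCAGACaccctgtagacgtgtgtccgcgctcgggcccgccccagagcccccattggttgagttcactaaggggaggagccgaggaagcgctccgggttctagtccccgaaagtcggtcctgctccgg
Id4: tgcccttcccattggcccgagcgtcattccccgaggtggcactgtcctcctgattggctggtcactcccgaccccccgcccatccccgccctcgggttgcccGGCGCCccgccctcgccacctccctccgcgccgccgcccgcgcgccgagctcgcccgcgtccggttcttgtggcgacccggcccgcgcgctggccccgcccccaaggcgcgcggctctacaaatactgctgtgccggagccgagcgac

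The CAGAC letters of the 3 BMP genes began 119 (Bmp6), 132 (Bmp8a, as GTCTG) and 126 (Bmp8b) bases before the TSS. CAGAC on either strand occurs in 49.6% of the 32851 promoter windows of the table, which run from 250 bases before to 50 after the TSS, and was found in 3 of the 7 genes. GGCGCC, which reads the same on both strands, occurs in 11.9% of all windows and was found in Id4 alone, 148 bases before the TSS. In a global alignment the 250 bases of Bmp8a and Bmp8b were 45.6% identical, within the 44.7 to 57.1% of the other 20 pairs of these 7 genes, so these 2 gene copies stood no closer here than unrelated members. These matches are descriptions of the letters in the window and say nothing of binding.

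The Smad6 sequence is shown because the edge of its lower peak falls within it. Capitals mark the 125 bases inside the peak, and the 250 bases lie at chr9:64022060-64022309 on the minus strand of GRCm38.p6.
Smad6: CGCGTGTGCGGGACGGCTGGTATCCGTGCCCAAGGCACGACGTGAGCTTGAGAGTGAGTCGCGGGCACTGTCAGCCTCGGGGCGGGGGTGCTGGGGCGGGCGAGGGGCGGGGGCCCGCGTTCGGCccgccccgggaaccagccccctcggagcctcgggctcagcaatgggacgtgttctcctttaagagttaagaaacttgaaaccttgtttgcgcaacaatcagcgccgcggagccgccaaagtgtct

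The palindrome GTCTAGAC, another motif known to bind Smads, began 4 bases before the Smad6 TSS, outside the lower peak, and so spans the end of the printed sequence. It occurs in 0.213% of the 32851 windows and in none of the other 6 genes with an entry (1 of 7 in all).

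**Figure D1:**
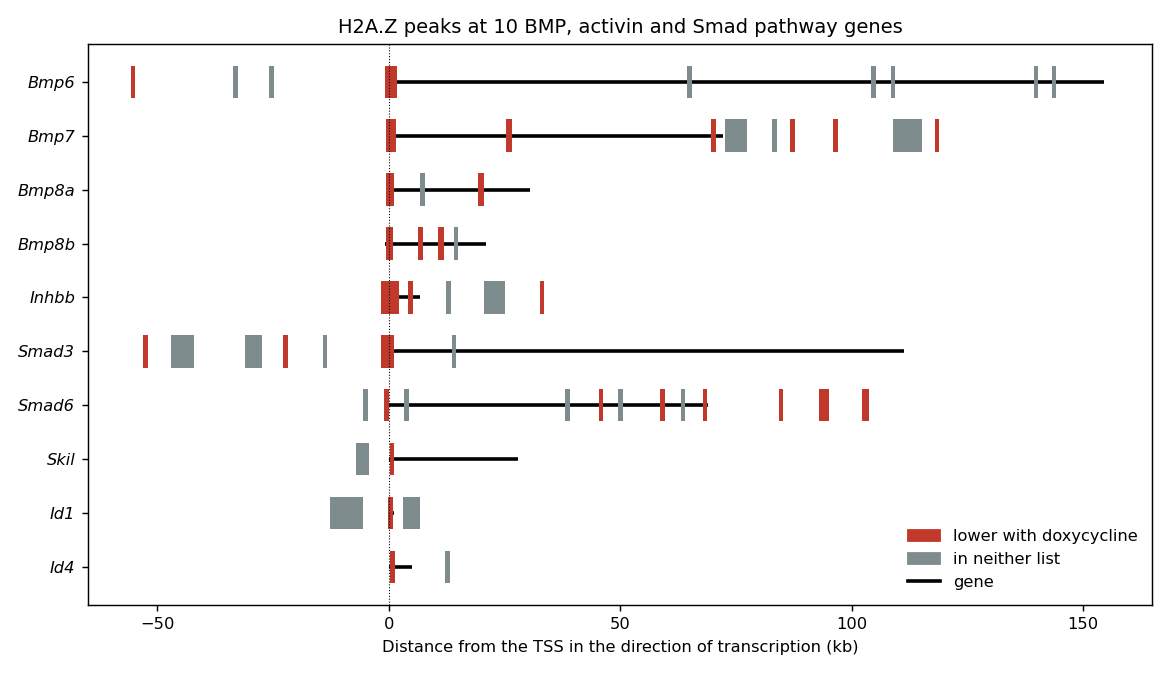
H2A.Z peaks at the 10 genes, drawn by distance from the TSS in kb along the direction of transcription, with the gene as a black line and peaks narrower than 1 kb drawn 1 kb wide. All peaks within 10 kb of the gene, or between the gene and the lower peaks assigned to it, are drawn. Each gene has a lower peak (red) at the TSS, Bmp7 and Smad6 have several more inside and beyond the 3′ end, and all 5 further peaks inside Bmp6 are unchanged (grey).

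Among the BMP ligand genes, Bmp6 and Bmp7 carried contrasting patterns. Bmp6 encodes a BMP known for inducing hepcidin in iron homeostasis, and Bmp7 one known for kidney and eye development. The lower Bmp6 peak (chr13:38344776-38347535, 2760 base pairs) was annotated in exon 1 of 7, centred 439 base pairs downstream of the TSS. It ran from 940 base pairs upstream to 1819 downstream. The gene spans 155 kb, and its 5 other peaks, at 64.9 to 144 kb from the TSS, were all unchanged and at most 1011 base pairs wide. One more lower peak of 817 base pairs (chr13:38290044-38290860) lay in intergenic DNA 55.3 kb upstream, beyond 2 unchanged peaks. At Bmp6 lower peaks were thus found at the TSS and far upstream, and the peaks from 64.9 kb onwards were unchanged.

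At Bmp7 all 3 peaks inside the gene were lower. The peak at the TSS (chr2:172938709-172940981, 2273 base pairs) was annotated in exon 1 of 7, centred 476 base pairs downstream, and also overlapped the RefSeq gene Gm40010. The next lay in intron 2 of 6 at 26.1 kb (chr2:172913624-172914912, 1289 base pairs), and the last in the 3′ UTR of exon 7 at 70.2 kb (chr2:172869861-172870361, 501 base pairs, the smallest width in the set). These 3 peaks follow each other with no unchanged peak between them over 71.1 kb. Beyond the 3′ end came 3 more lower peaks, at 87.3, 96.6 and 118 kb from the TSS, of 765, 1049 and 501 base pairs. The peak at 87.3 kb overlapped the RefSeq gene Gm36254. The peak at 96.6 kb was annotated in an ORR1E element, a long terminal repeat of the ERVL-MaLR family. The stretch past the 3′ end also held 3 unchanged peaks of 4794, 1036 and 6342 base pairs, so the widest peaks of the region were unchanged. With 6 assigned lower peaks, Bmp7 was one of 28 genes with 6 or more, among the 6690 genes that had any (0.419%). The genes were chosen with these assignments known. The assignments have no distance limit and gene length was not allowed for, so nothing is read from this rank.

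Bmp8a and Bmp8b are neighbouring duplicate ligand genes of chromosome 4, known for roles in spermatogenesis and germ cell formation. Their lower peaks at the TSS were alike in width and place. The Bmp8a peak (chr4:123342179-123343799) was 1621 base pairs wide and centred 263 base pairs downstream, and the Bmp8b peak (chr4:123104442-123106096) was 1655 base pairs wide and centred 108 base pairs downstream. Both were annotated in the 5′ UTR of exon 1. Each gene holds within it a single-exon gene for a ketone body enzyme, Oxct2a or Oxct2b, and each of these had a lower peak of its own. The Oxct2a peak (chr4:123322721-123323987, 1267 base pairs) lay 19.9 kb from the Bmp8a TSS and the Oxct2b peak (chr4:123115775-123117153, 1379 base pairs) 11.3 kb from the Bmp8b TSS. In Bmp8b a further lower peak of 501 base pairs, in intron 1 of 6, lay between the TSS and the Oxct2b peak, at 6.80 kb, and was assigned to Oxct2b. Each gene also had 1 unchanged peak, of 1017 base pairs in Bmp8a and 757 in Bmp8b. Because Bmp8a and Bmp8b, and Oxct2a and Oxct2b, are close copies, reads may be shared between them, and mappability was not tested.

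Inhbb encodes the beta B subunit of activins and inhibins. Its lower peak at the TSS was the widest of the 25, at 3902 base pairs (chr1:119420085-119423986), from 1738 base pairs upstream to 2163 downstream of the TSS. A lower peak of 1031 base pairs in exon 2 of 2, at 4.70 kb (chr1:119417030-119418060), followed it directly, so that both peaks inside this gene of 6.79 kb were lower. Downstream of the gene, unchanged peaks of 501 and 4439 base pairs at 12.8 and 22.8 kb were followed by a lower peak of 649 base pairs at 33.1 kb.

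Smad3 and Smad6, neighbours on chromosome 9, carried 10 of the 25 lower peaks. Smad3 encodes a receptor-regulated Smad of activin and TGF-beta signalling. Its lower peak at the TSS (chr9:63756937-63759775, 2839 base pairs) was annotated as promoter and centred 362 base pairs upstream. The single other peak in this gene of 111 kb, 14.1 kb into it and 501 base pairs wide, was unchanged. Upstream, lower peaks lay at 22.4 kb (chr9:63779849-63780872, 1024 base pairs, overlapping the RefSeq gene Gm35941) and at 52.6 kb (chr9:63810247-63810999, 753 base pairs, annotated in a simple repeat). Unchanged peaks of 3671 and 5078 base pairs lay between these.

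Smad6 encodes an inhibitory Smad that acts against BMP receptors. It had 7 lower peaks, a count reached by 15 of the 6690 genes (0.224%), and most were far from the TSS. As at Bmp7, nothing is read from this rank. The peak nearest the TSS (chr9:64022185-64022856) was 672 base pairs wide, annotated as promoter, centred 461 base pairs upstream, and ended 126 base pairs before the TSS. Inside the gene, 3 of 7 peaks were lower, in intron 3 of 3 at 45.8 and 59.1 kb and in exon 4 of 4 at 68.3 kb, with widths of 1041, 1031 and 501 base pairs. The 4 unchanged peaks inside it, at 3.84, 38.7, 50.1 and 63.5 kb, were 501 base pairs wide except for 919 at 3.84 kb. Past the 3′ end lay lower peaks annotated as intergenic, of 971 (overlapping the RefSeq gene Gm36033), 2282 and 1637 base pairs at 84.8, 94.0 and 103 kb. Together with the exon 4 peak they formed a run of 4 lower peaks without an unchanged one over 35.7 kb (chr9:63918280-63954024). Of the 6442 such runs in the peak set, single peaks included, 242 (3.76%) had 4 or more.

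Between the Smad3 TSS and the 3′ end of Smad6, 195 kb apart, RefSeq places no protein-coding gene (0 of 5 genes there). Of the 15 peaks in this interval beyond 10 kb of the Smad3 TSS, 5 were lower (33.3%), beside 14.8% of all peaks of the set. Both genes were chosen with the lower peaks assigned to them known, and all 5 are such peaks. Nothing is therefore read from this share. The 2 assigned to Smad3 and the 3 assigned to Smad6 lay towards opposite sides, which follows from assigning each peak to its nearest TSS. The 7 peaks in a row between these lower peaks were all unchanged. The lower peaks had a median width of 1024 base pairs and the 10 unchanged ones 1510.5, and the 4 peaks over 3 kb wide were unchanged.

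Skil, Id1 and Id4 each had a single, narrow lower peak just inside the gene. Skil encodes SnoN, a corepressor that binds Smads. Its lower peak (chr3:31095337-31096087, 751 base pairs) began 279 base pairs downstream of the TSS, in intron 1 of 6, and an unchanged peak of 2875 base pairs was centred 5.66 kb upstream. Id1 and Id4 encode inhibitors of basic helix-loop-helix transcription factors, and Id1 is a direct BMP target. The lower Id1 peak (chr2:152736327-152736963, 637 base pairs) began 76 base pairs downstream of the TSS in exon 1 of 2. It lay between unchanged peaks of 7029 and 3638 base pairs, centred 9.12 kb upstream and 4.86 kb downstream. At Id1 the broad flanking peaks were thus in neither list, and the narrow one on the gene was lower. The Id4 peak (chr13:48261588-48262216, 629 base pairs) was annotated in exon 1 of 3 of Id4, from 472 to 1100 base pairs downstream of its TSS. The authors' annotation assigned it to A330033J07Rik, whose TSS was nearer, at 721 base pairs. The other Id4 peak, 1037 base pairs wide at 12.6 kb, was unchanged.

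**Figure D2:**
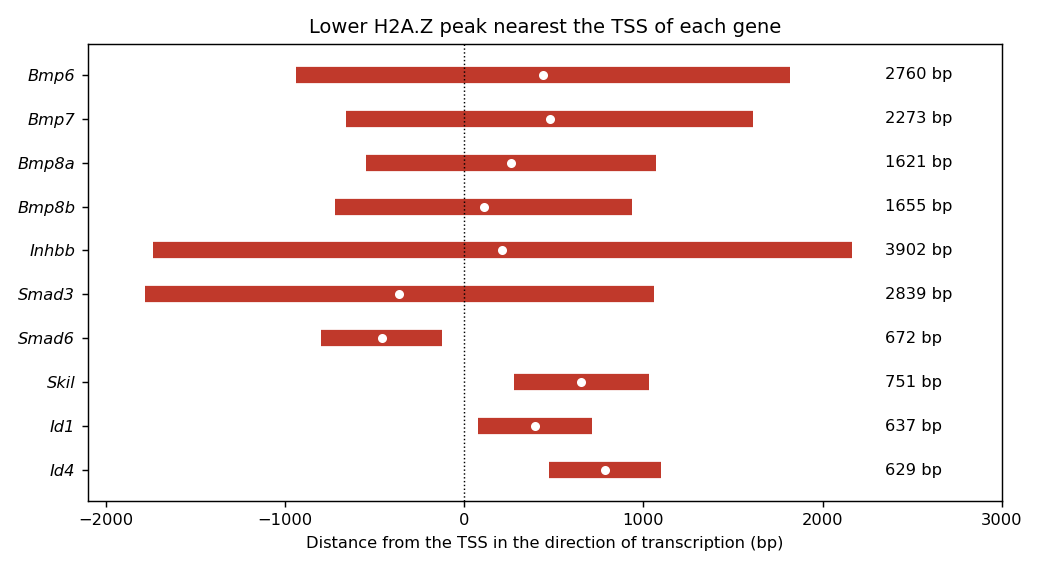
Extent of the lower H2A.Z peak nearest the TSS of each gene, in base pairs from the TSS along the direction of transcription, with the centre as a white point and the width at the right. The peaks of the 5 ligand genes and Smad3 cover the TSS, and those of Smad6, Skil, Id1 and Id4 are narrower and lie to one side.

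The peaks at the TSS fell into wide ones over the TSS and narrow ones beside it. In 6 genes, the 5 ligand genes and Smad3, the peak covered the TSS and was 1621 to 3902 base pairs wide. In the other 4, Smad6, Skil, Id1 and Id4, it did not reach the TSS and was 629 to 751 base pairs wide. For comparison, the 3474 lower peaks that the authors' annotation places within 1 kb of a TSS had a median width of 1315.5 base pairs (quartiles 852.5 and 1884.5), and 89.5% of them covered the TSS. All 4 narrow peaks were below that lower quartile, and Bmp6, Bmp7, Inhbb and Smad3 were above the upper one. The centre was downstream of the TSS in 8 genes and upstream in 2, Smad3 and Smad6, against 70.2% downstream among those 3474 peaks.

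The 7 promoter windows were GC-rich, with 62.0% (Bmp8a), 64.3% (Inhbb), 65.3% (Bmp8b), 66.3% (Smad6), 67.7% (Smad3), 69.3% (Bmp6) and 73.3% (Id4), against a median of 52.7% over all windows and 64.0% over the 3602 whose TSS lay under a lower peak. All but Bmp8a were at or above that second value. The ratio of observed to expected CpG was lowest in Bmp8a, at 0.523, and highest in Smad6 and Id4, at 0.952 and 0.988, and the median under lower peaks was 0.716. The TSSs of Smad6 and Id4 lay under no peak, and windows of that class had medians of 48.3% GC and 0.239 for this ratio. GC skew, the excess of G over C on the coding strand as a share of both, is often examined at R-loops. It was positive in Smad3 (0.182), Smad6 (0.116), Bmp8a (0.0753) and Inhbb (0.0155) and negative in Bmp6 (−0.0577), Bmp8b (−0.122) and Id4 (−0.145). The 7 genes with an entry thus shared GC richness but not a direction of skew. Over windows under lower peaks, the median GC content (64.0%) lay within the range of these 7, and the median skew was 0.00935. Runs of 4 or more G on the coding strand were found in all 7, from 1 in Id4 to 5 in Smad6, and in 69.0% of all windows and 86.5% of those under lower peaks.

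**Figure D3:**
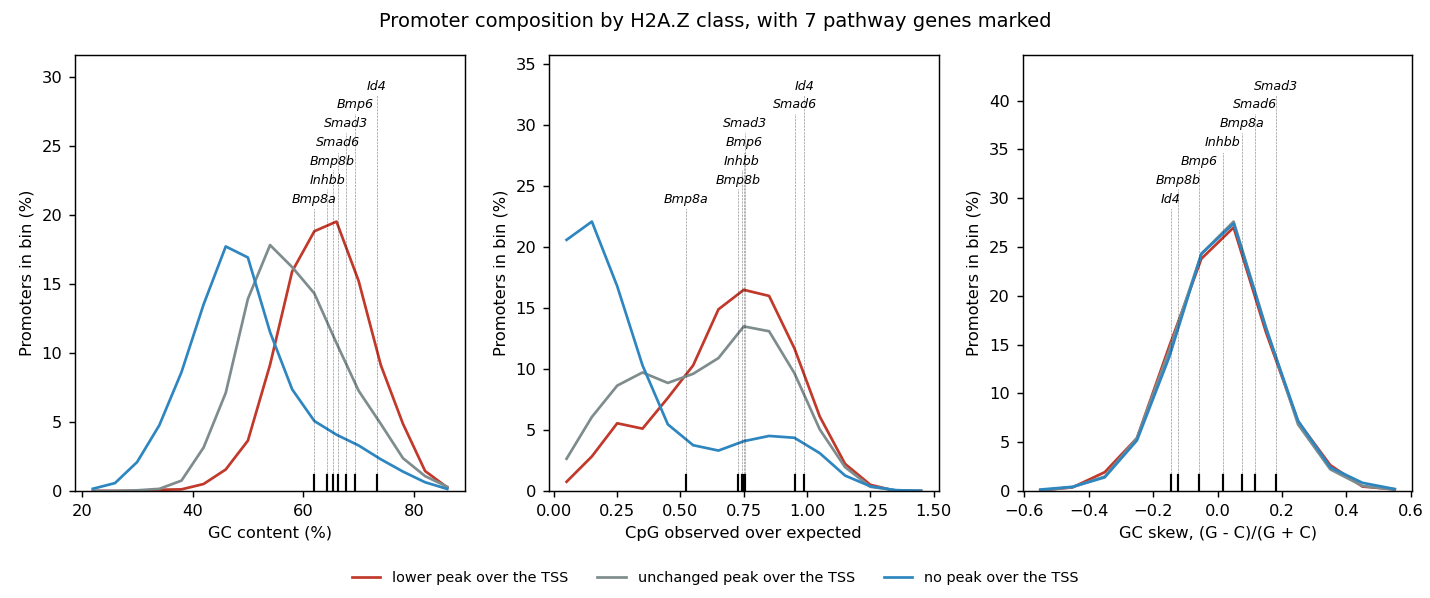
Composition of RefSeq promoter windows by the H2A.Z peak over the TSS: lower (red), unchanged (grey) or none (blue). The vertical axes give the percentage of promoters of a class in each bin, for GC content, CpG observed over expected, and GC skew. Ticks mark the 7 genes with an entry, of which Smad6 and Id4 have no peak over the TSS. The GC content of the 7, 62.0 to 73.3%, lies around the median of 64.0% of the class with a lower peak and above the medians of the other classes. Their skew runs from −0.145 to 0.182.

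Counted by position, the 10 genes extended by 10 kb on each side held 38 peaks, of which 19 were lower (50%, 95% exact Clopper-Pearson interval 33.4 to 66.6%, which covers counting only), 19 unchanged and 0 higher. Over all protein-coding and lncRNA genes with the same extension, 17.3% of peaks were lower, and 36.8% of the genes with a peak there had a lower one. Of the genes in the promoter table with a peak centred within 1 kb of a TSS, 29.1% had a lower one there. Since the genes were chosen from these lists, nothing is read from their higher shares. Leaving aside the peak nearest each TSS, 9 of 28 locus peaks were lower (32.1%, interval 15.9 to 52.4%). The 3 peaks at a TSS of another gene include the lower peaks at Oxct2a and Oxct2b. With these 3 also left out, 7 of 25 were lower (28.0%, interval 12.1 to 49.4%). Over all gene loci 14.1% of peaks away from the TSSs of the promoter table were lower. The genes were chosen with the lower peaks assigned to them known, at any distance from the TSS. Leaving out the TSS peak therefore does not remove that choice, nothing is read from these shares, and the intervals cover counting only. The 9 lower peaks were in 5 genes, Bmp7, Bmp8a, Bmp8b, Inhbb and Smad6, and in the other 5 only the peak at the TSS was lower. Of the 25 assigned peaks, 9 were within 1 kb of a TSS (36%, against 38.3% of all lower peaks), 1 was at 4.70 kb and 15 were beyond 10 kb (60.0%, against 42.0%). Of those 15, 12 were downstream of the TSS and 3 upstream, and 13 belonged to Bmp7, Smad3 or Smad6. The median width of the 25 was 1031 base pairs, and that of all lower peaks 1034.

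The rest of the pathway was described with 7 lists of 93 genes, counting a gene by its peaks centred within 1 kb of either end. Of the 57 with a peak there, 21 had a lower one (36.8%), beside 28.3% of the 14640 protein-coding and lncRNA genes with a peak at an end. With protein-coding genes only, the pathway count stayed at 21 of 57, and the share over all genes was 31.5%, which is the closer comparison. All 10 members are among the 21, and without them the count was 11 of 47 (23.4%). Higher peaks at an end were found at 0 of the 57, beside 0.0956% of all genes. Since the members were chosen with the lower list known, leaving them out reduces the count by construction. The authors' assignment, which has no distance limit, reached more genes: 39 of the 93 had a lower peak assigned, and 30 of the 83 without the members, with 39 peaks. Over the whole lower list 6690 genes had one assigned. A share over all genes was not computed under this rule, so nothing is read from these counts.

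Of the ligand genes outside the members, 4 of 8 BMP and GDF genes with a peak at an end held a lower one (8 of 12 with the members). These were Amh, the anti-Müllerian hormone gene (2695 base pairs, 2.96 kb from the TSS), Gdf7, a ligand of the roof plate (1622 base pairs, 61 base pairs from the TSS), Gdf10 (1318 base pairs, 109 base pairs from the TSS) and Gdf1 (501 base pairs, 69 base pairs from the TSS). Among activin, Nodal and TGF-beta ligand genes outside the members it was 0 of 2 (1 of 3 with Inhbb). Away from the RefSeq gene ends, 1 lower peak each was assigned to Tgfb2, Tgfb1 and Inhba, named after their values were seen, at 826 base pairs, 1072 base pairs and 43.0 kb from the TSS of the authors' annotation. Bmp4, Nodal and Lefty1, named after their values were seen, had no peak of the set at an end. Bmp2 had none there either, but 2 lower peaks were assigned to it, the nearer at 1.41 kb from the TSS, and 1 higher peak of 1803 base pairs 273 kb upstream.

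Receptors showed lower peaks in 3 of 12 genes with a peak. These were the co-receptor genes Eng (endoglin, 3751 base pairs, 0.387 kb upstream of the TSS) and Tgfbr3 (betaglycan, 1430 base pairs) and the activin type I receptor gene Acvr1b (501 base pairs). The other 9 genes with a peak, among them the receptor genes Acvr1, Acvr2a, Bmpr2, Tgfbr1 and Tgfbr2, which were named after their values were seen, had no lower one at an end. Lower peaks away from the RefSeq gene ends were assigned to 4 more receptor and co-receptor genes. Among them were Acvrl1 (3 peaks, the nearest at 5.44 kb) and Amhr2 (1 peak at 0.958 kb), named after their values were seen. Both distances are from the TSS of the authors' annotation. At Bmpr1b a higher peak of 501 base pairs lay in an intron, 77.4 kb from the TSS. Beside Smad3 and Smad6, 0 of 5 Smad genes with a peak were lower at an end (2 of 7 in all), and beside Skil, 0 of 4 genes of intracellular attenuators (1 of 5 in all). Distant lower peaks were assigned to Smad5 (2 peaks, the nearest at 49.7 kb) and Smad7 (1 peak at 67.5 kb), named after their values were seen. Among secreted antagonists it was 1 of 11, Bmper, whose lower peak of 1688 base pairs was centred 45 base pairs from the TSS, while Nog, Chrd and Fst, named after their values were seen, had unchanged peaks. Among the target genes beside Id1 and Id4, 3 of 5 had a lower peak (5 of 7 in all): Msx1 (8619 base pairs), a homeobox gene of limb and neural crest, Atoh8 (1760), a helix-loop-helix gene, and Msx2 (1077). The counts per list are small, and the lists were not tested against each other. For every list, the ligands included, the shares over all genes to set beside them are the same 28.3% and 31.5%. Leaving out the members lowers a list's count by construction, so nothing is read from the counts without them.

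**Figure D4:**
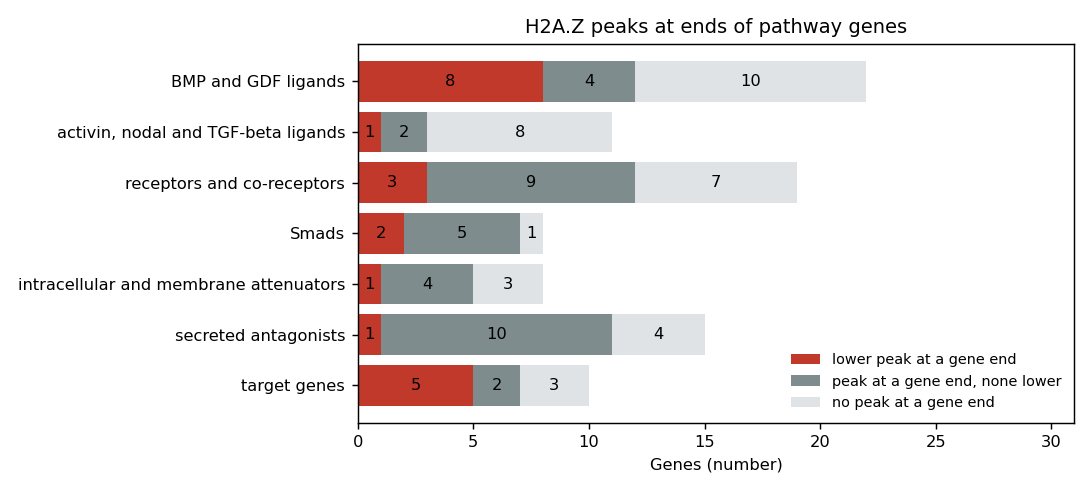
Number of genes in 7 lists of the TGF-beta superfamily pathway with a lower H2A.Z peak centred within 1 kb of a gene end (red), with a peak there but no lower one (grey), and with no peak there (light). Lower peaks were found at 8 BMP and GDF ligand genes, 4 of them members, at 5 target genes, and at 1 of the 11 secreted antagonist genes with a peak. Among all protein-coding and lncRNA genes with a peak at an end, 28.3% had a lower one.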

How the data were processed

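H2A.Z CUT&Tag libraries (4 control, 4 doxycycline) of a series of 56 were used through 3 deposited files. Bowtie2, deepTools, HOMER, Picard and Trimmomatic were used on GRCm38, per the submitters' processing notes. Not given in the sources used here are the caller of the peaks, how the lists were tested and with which threshold, and any pooling of replicates. HOMER, per the file headers, annotated the lists; the peak score the authors deposited is 0 throughout and was not used. Each listed peak matched 1 peak of the whole set by position, and printed starts count from 1.

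The members and gene lists were chosen with earlier results of these data known. Gene ends came from RefSeq genes of GRCm38.p6. The TSS came from RefSeq promoters or, for Bmp7, Skil and Id1, from the gene end that the authors' distances point to. A peak was placed by its centre. Named genes were all members, other pathway genes with a lower or higher peak (at most the 4 widest lower peaks at a gene end per list), and genes inside member loci with a lower peak. Bmp2 and Bmpr1b were named for a higher peak. Genes overlapped by a lower peak assigned to a member were also named, after their values were seen. Alternatives covered windows, overlap, width, gene type and TSS. Peak counting was tested on simulated data. Python 3.11.15, pandas 2.3.3, SciPy 1.17.1 and Biopython 1.88 were used.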

Additional observations from a re-analysis of the deposited data

How the results depend on the processing

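The count of members with a lower peak was 9 within 1 kb and within 3 kb of the TSS and without peaks of the minimum width of 501 base pairs, and 10 by position, which adds Id4. The share of lower peaks at the members was 61.3% with genes extended by 1 kb, 57.6% by 5 kb and 36.4% by 50 kb. It was 48.7% counting any overlap and 59.3% without minimum-width peaks. All these shares lay within the interval around 50%, which is wide. The genes were chosen with the lists known, so these counts and shares are descriptions and no sign of robustness. The 21 pathway genes with a lower peak at a gene end became 13 of 32 (40.6%) within 500 base pairs, a window that admits fewer peaks, and were 19 to 30 under the other windows, overlap, width and gene-type rules set at the start. With promoter-table TSSs, chosen after seeing the data, they were 18 of 38 (47.4%). The share over all genes was 28.3%, and moved beyond its counting interval to 27.2% within 500 base pairs, 31.5% in protein-coding genes only and 29.1% with promoter-table TSSs. No paired analysis was possible because the files used here hold no value per library, and for the same reason no replicate was left out. Peak height and depth are unknown, so how easily a peak could be listed as lower was not tested.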

Other observations

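Across the 32851 RefSeq promoter windows of 27025 genes, composition differed by the H2A.Z peak over the TSS, and GC skew differed little. The median GC content was 64.0% in the 3602 windows with a lower peak, 57.3% in the 9426 with an unchanged peak and 48.3% in the 19818 without a peak. The median ratio of observed to expected CpG was 0.716, 0.641 and 0.239 in the same order. The median GC skew was 0.00935, 0.0116 and 0.0137, with quartiles of −0.0871 and 0.109 under lower peaks. Runs of 4 or more G on the coding strand were found in 86.5, 77.9 and 61.6%, GGCGCC in 24.2, 16.9 and 7.23%, and CAGAC on either strand in 48.6, 50.8 and 49.2%. Genes with several TSSs enter more than once, and 5 windows lay under a higher peak. No test was made of these differences.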
